A study of Mus musculus with 6 samples.

Results

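The genes described here are 35 members of the machinery that copies DNA and of the switch from G1 to S phase, taken by symbol from the 22377 genes of the deposited table. They were measured by RNA sequencing in 6 libraries of LLC (Lewis lung carcinoma, a mouse tumor line) tumors, 3 labelled wt and 3 labelled knockdown. In the paper's account the material was CD45+ CD11b+ F4/80+ tumor-associated macrophages (TAMs) sorted from subcutaneous tumors of male and female Npm1+/+ and Npm1+/- mice, which received LLC cells at 6 to 8 weeks of age and were killed 2 weeks later. The labels give tumor tissue, TRIzol extraction and an enrichment of small RNAs instead, name no genotype, and do not say which sex gave which library. The Npm1+/- mice lack 1 of the 2 copies of Npm1 in every cell of the host, not in macrophages alone, whereas the implanted tumor cells are the same in both groups. The groups are named below as the labels give them.

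Before a cell copies its DNA, the origin recognition complex with Cdc6 and Cdt1 loads the ring of Mcm2 to Mcm7 onto origins in G1. Cdc45 and the GINS complex then turn that ring into an active helicase, and polymerases, the sliding clamp Pcna and its loader follow it, fed by enzymes that make deoxynucleotides. Cyclin E and the E2F factors open this program, and many of its genes are themselves E2F targets. Most macrophages of adult tissue are not dividing, although macrophages in tumors can proliferate locally, and their transcripts of these genes are therefore read as an average over dividing and resting cells.

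Total counts lay between 36550775 and 38147320 per library. Npm1, the targeted gene, stood at 142, 380.2 and 381 CPM (counts relative to the TMM-scaled library total) in wt replicates 1, 2 and 3, and at 441, 499 and 343 in knockdown replicates 1, 2 and 3, so that its mRNA was not lower under the knockdown label, and directions below are those between libraries as labelled. The sorting markers Ptprc, Itgam and Adgre1 reached at least 928, 1492 and 127 CPM in every library. Wt replicate 1 stood apart from the other 5 libraries, at -108 on the first principal component (67.99% of the variance) against -4.54 to 52.0, and each main result is therefore also given without it. No 2 libraries of a group agreed within sampling noise, with a chi-square value per gene of 31.1 to 139. The labels call each library a separate biosample, but the paper names fewer mice per group beside a heatmap of TAM expression than there are libraries. Whether each library came from its own mouse is not given in the sources used here, and p-values measure only the spread between these libraries, which may be partly technical.

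All 35 members passed the filter on low counts. In the libraries labelled knockdown, the estimate was higher for 34 members and lower for 1, Gins4, against 52.1% of the 13884 genes tested with an estimate above 0. The median log2 fold change of the members was 0.63, with a range of -0.05 to 1.48, and the median over all genes tested was 0.02. In bulk RNA, a larger share of dividing cells and more of these transcripts per cell cannot be told apart. None of the members passed an adjusted p of 0.05 (quasi-likelihood F test of edgeR, Benjamini-Hochberg), as was true of all genes (0% called). At an unadjusted p under 0.05, 10 members were higher and 0 lower, with 6.9% of all genes higher and 8.31% lower. DESeq2 called 0 members as well, with 0.263% of all genes called.

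Values of the 2 groups did not overlap for 11 members, all higher in the libraries labelled knockdown, which is 31.4% of the members against 13.3% of all genes tested. These were Mcm2, Orc6, Cdt1, Gins1, Gins3, Pola1, Pcna, Lig1, Rrm2, Tyms and Ccne2. For a single gene, 3 against 3 libraries give a two-sided exact permutation p of at least 0.1. Members are transcribed together in dividing cells and are not independent of each other, so that their number does not stand for replicates.

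**Figure D1:**
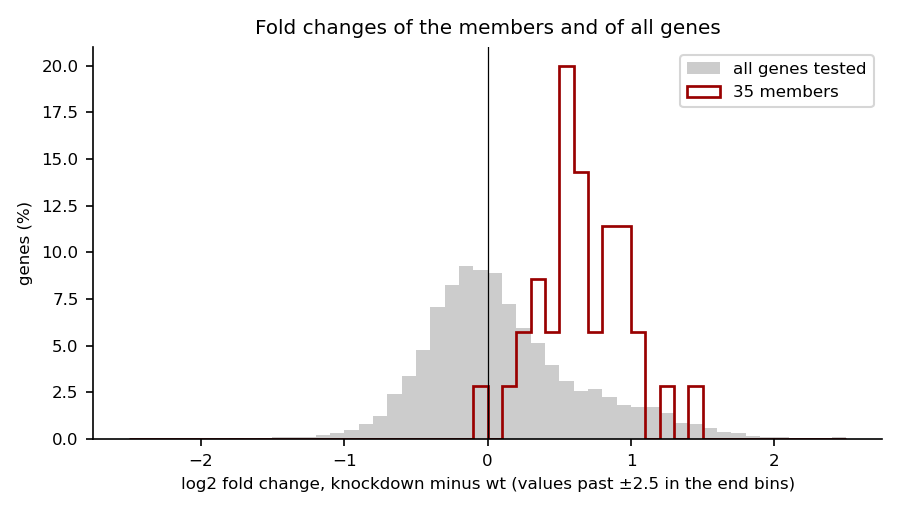
Distribution of the log2 fold change, knockdown minus wt, for all 13884 genes tested (grey) and for the 35 members (red outline), in percent of each set on the vertical axis and in bins of equal width on the horizontal axis. The members lie between -0.05 and 1.48 around a median of 0.63, whereas all genes center at 0.02.

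Leaving out wt replicate 1 lowered the median log2 fold change of the members to 0.40 (all genes 0.03). The estimate stayed above 0 for 34 members, against 53.7% of genes, while 11 members were higher and 0 lower at an unadjusted p under 0.05, against 6.81% and 5.38% of genes. Again 11 members did not overlap, against 16.6% of all genes. Wt replicate 1 was the lowest library for 32 members. Leaving it out cannot change whether all their knockdown values lie above all wt values, so this count is no separate check. edgeR called 0 members and 0% of all genes at an adjusted p under 0.05 without this library, and DESeq2 called 0 members with 0.659% of genes called and 0.312% called higher.

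**Figure D2:**
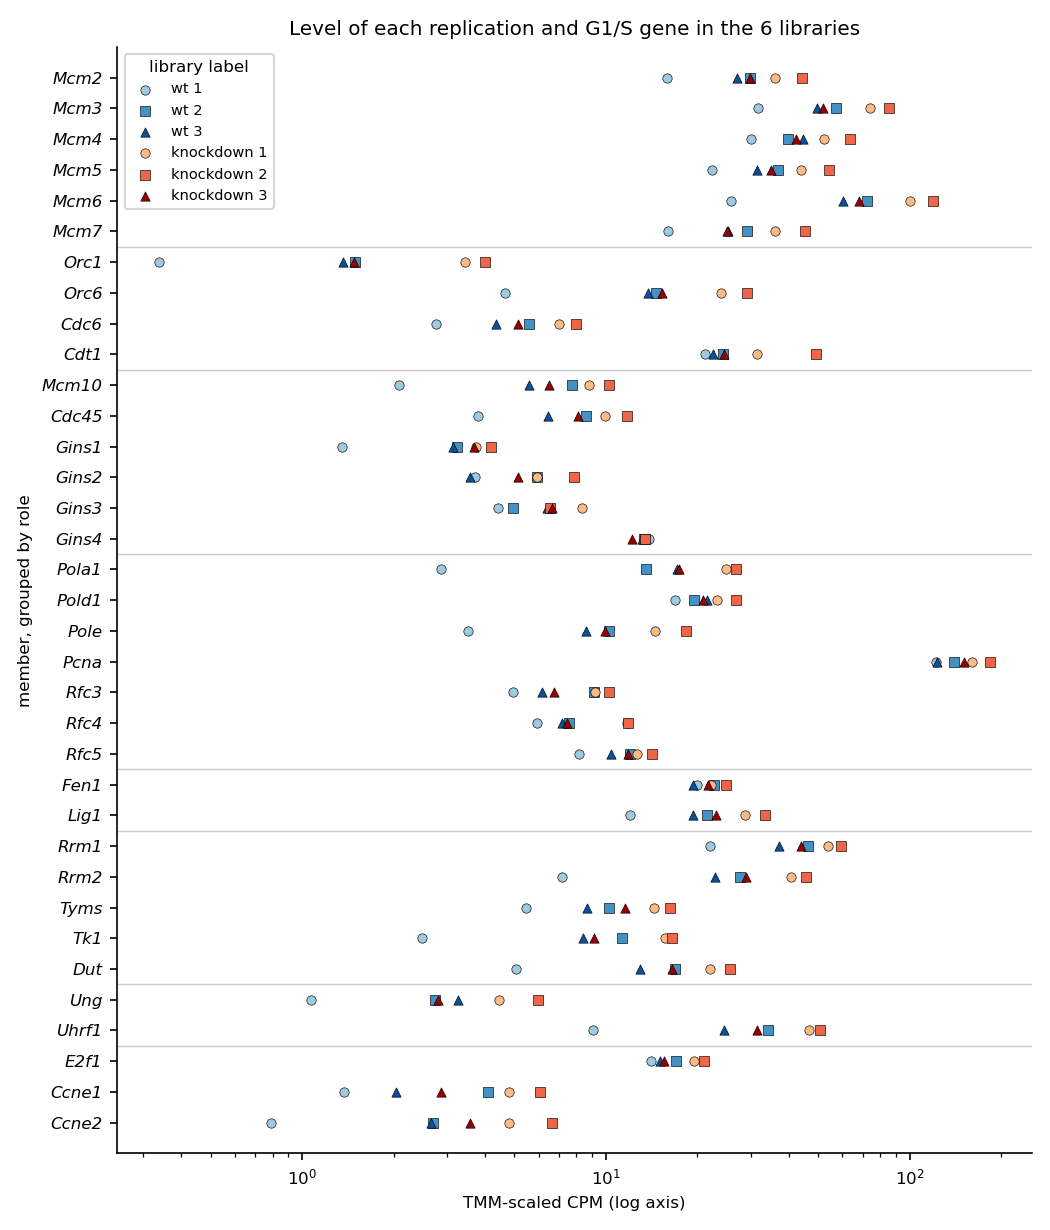
Level of each member in TMM-scaled CPM on a logarithmic horizontal axis, one point per library (blue, wt; orange to red, knockdown), with members grouped by role from top to bottom. Pcna lies highest, between 122 and 184 CPM, Orc1 lowest, and the light blue point of wt replicate 1 is the leftmost one for 32 of the 35 members.

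The Mcm2 to Mcm7 subunits, which form the ring of the replicative helicase, were all higher in mean level in the libraries labelled knockdown, with log2 fold changes of 0.47 for Mcm4 to 0.86 for Mcm6 and a median of 0.60. Mcm6 was at 0.53 (SE 0.22) and the median of the ring at 0.38 without wt replicate 1. Mcm3 was the most abundant per length, with a mean over all libraries of 19.6 FPKM (counts scaled to gene length and library total), and Mcm2 the least, at 9.21 FPKM. Mcm2 stood at 15.8, 29.8 and 27.0 CPM in wt replicates 1, 2 and 3, and at 35.9, 44.1 and 29.8 in knockdown replicates 1, 2 and 3. The groups did not overlap, but wt replicate 2 and knockdown replicate 3 were equal to 3 digits. For Mcm3 the levels were 31.7, 57.1 and 49.6 CPM under the wt label, and 74.2, 85.6 and 51.6 under the knockdown label. Here knockdown replicate 3 lay within the wt values, and the other knockdown replicates lay above all of them. The log2 fold change of Mcm3 was 0.61 (SE 0.26, 95% interval 0.00483 to 1.21, edgeR quasi-likelihood, adjusted p = 0.328), and without wt replicate 1 it was 0.40 (SE 0.21).
Mcm6 spanned the widest range of the ring, from 25.8 CPM in wt replicate 1 to 119 in knockdown replicate 2. The ratio of Mcm6 to Mcm4 in FPKM, which does not depend on scaling between libraries, was 0.698, 1.47 and 1.10 in wt replicates 1, 2 and 3 and 1.56, 1.51 and 1.31 in knockdown replicates 1, 2 and 3. The subunits of 1 ring were thus not lower by the same factor in wt replicate 1. This pair was chosen after the values were seen.

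Promoters of the members carried matches to the E2F consensus. RefSeq windows on GRCm38.p6, from 250 bases before to 50 bases after an annotated start, were found for 29 of the 35 members (34 windows). Both strands were searched for the 8-base words TTTCCCGC, TTTGGCGC, TTTCGCGC and TTTGCCGC, which together spell out the consensus and may overlap each other. At least 1 of them occurred in 13 of the 29 members, or 44.8%, and in 2.60% of all 27025 genes with a window. Per window the shares were 38.2% of 34 and 2.26% of 32851. Windows of the members had a median GC content of 60.7%, against 52.7% for all windows. A match is a description of the letters and not a site of binding. The 13 members with a match had a median log2 fold change of 0.63 (range 0.29 to 1.48) and the 16 without one 0.69 (0.15 to 1.05). Sites outside the windows or spelled otherwise were not searched, so members without a match may still hold an E2F site. Whether such sites go with fold change was not tested.
The windows of the 4 Mcm genes with a match show how the words lie, and capitals mark them on either strand:
Mcm3, chr1:20820263-20820562, minus strand: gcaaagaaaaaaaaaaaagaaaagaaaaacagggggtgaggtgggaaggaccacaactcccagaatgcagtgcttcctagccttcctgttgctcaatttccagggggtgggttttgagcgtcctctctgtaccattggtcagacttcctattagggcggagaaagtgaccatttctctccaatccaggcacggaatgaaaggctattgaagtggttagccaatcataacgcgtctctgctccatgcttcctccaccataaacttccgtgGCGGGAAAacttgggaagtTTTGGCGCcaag
Mcm5, chr8:75109259-75109558, plus strand: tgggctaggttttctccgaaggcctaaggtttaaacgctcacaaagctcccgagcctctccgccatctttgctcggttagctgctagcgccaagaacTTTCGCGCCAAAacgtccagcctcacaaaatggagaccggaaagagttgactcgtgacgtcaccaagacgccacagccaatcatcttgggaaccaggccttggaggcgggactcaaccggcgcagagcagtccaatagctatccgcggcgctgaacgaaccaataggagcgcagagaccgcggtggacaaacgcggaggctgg
Mcm6, chr1:128359656-128359955, minus strand: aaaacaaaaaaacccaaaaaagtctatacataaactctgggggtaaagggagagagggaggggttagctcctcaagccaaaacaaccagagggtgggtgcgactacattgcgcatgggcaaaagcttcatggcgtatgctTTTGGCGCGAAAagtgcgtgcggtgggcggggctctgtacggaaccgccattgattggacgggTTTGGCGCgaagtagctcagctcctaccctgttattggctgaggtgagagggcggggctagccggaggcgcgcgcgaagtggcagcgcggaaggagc
Mcm7, chr5:138171834-138172133, minus strand: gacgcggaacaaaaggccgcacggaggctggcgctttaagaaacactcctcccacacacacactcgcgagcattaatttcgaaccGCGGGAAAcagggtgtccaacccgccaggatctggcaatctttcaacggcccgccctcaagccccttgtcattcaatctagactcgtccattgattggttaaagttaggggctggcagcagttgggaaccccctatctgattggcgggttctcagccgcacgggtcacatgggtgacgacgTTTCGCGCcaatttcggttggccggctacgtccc
In Mcm6 and Mcm5, TTTGGCGC and TTTCGCGC overlap head to head in the same 12 bases, TTTGGCGCGAAA along Mcm6 and its reverse complement TTTCGCGCCAAA along Mcm5. This run, singled out after it was seen, occurred in windows of 4 of the 27025 genes. Counted from the annotated start as 0, it began at -110 in Mcm6 and at -153 in Mcm5, and Mcm6 had a further TTTGGCGC from -47. In Mcm3 both matches followed the start, at 19 and 38. The windows of Mcm2, Pcna, Tyms, Rrm2, E2f1 and Ccne1 held none of the words.

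Licensing factors load the Mcm ring. Their median log2 fold change was 0.86 over 4 members, with higher estimates for all of them. Orc6, a small subunit of the origin recognition complex, lies on chromosome 8 from 85299632 to 85308278 (GRCm38, GENCODE). It stood at 4.67, 14.6 and 13.8 CPM in wt replicates 1, 2 and 3, and at 23.8, 29.1 and 15.3 in knockdown replicates 1, 2 and 3. All knockdown values lay above all wt values, by a narrow margin for knockdown replicate 3. Its log2 fold change was 1.05 (SE 0.43, 95% interval 0.04 to 2.05, edgeR quasi-likelihood, adjusted p = 0.328) and 0.68 (SE 0.25) without wt replicate 1.
Cdt1, which brings the Mcm ring to the origin and is destroyed in S phase, lies on chromosome 8 from 122568015 to 122573554. Its levels were 21.2, 24.2 and 22.6 CPM under the wt label, and 31.5, 49.0 and 24.5 under the knockdown label. Wt replicate 1 differed little from the other wt libraries in this gene, and knockdown replicate 2 was far above the rest. The log2 fold change of 0.63 (SE 0.25) was 0.58 (SE 0.27) without wt replicate 1. Cdc6, the ATPase that works with Cdt1, ranged from 2.76 to 5.58 CPM and from 5.14 to 7.97 CPM in the same order of labels. Orc1, the largest subunit, had the highest log2 fold change of all members, 1.48 (SE 0.61), and the lowest counts, with 12, 53 and 51 in wt replicates 1, 2 and 3 and 135, 167 and 54 in knockdown replicates 1, 2 and 3. Knockdown replicate 3 was at the level of wt replicates 2 and 3. The stretches of the Orc1, Cdc6 and Cdt1 windows around their single E2F word are as follows, with the word in capitals:
Orc1, chr4:108579401-108579460, plus strand: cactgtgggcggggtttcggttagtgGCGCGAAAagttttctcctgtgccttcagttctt
Cdc6, chr11:98907987-98908046, plus strand: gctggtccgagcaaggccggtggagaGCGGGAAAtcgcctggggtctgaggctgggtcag
Cdt1, chr8:122568005-122568064, plus strand: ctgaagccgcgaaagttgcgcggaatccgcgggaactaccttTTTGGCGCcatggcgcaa

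Among the factors that activate the helicase, Mcm10, Cdc45 and the 4 GINS subunits, the median log2 fold change was 0.55. The GINS subunits form 1 complex, yet their transcripts did not share 1 pattern over the libraries. Gins4, on chromosome 8 from 23226616 to 23237659, stood at 13.8, 13.4 and 13.2 CPM in wt replicates 1, 2 and 3, and at 13.3, 13.5 and 12.2 in knockdown replicates 1, 2 and 3. It was the member with the least spread between labels, with a log2 fold change of -0.05 and a 95% interval of -0.39 to 0.30, and the only one highest in wt replicate 1. On log2 of FPKM its estimate turned positive, at 0.0910 with a pseudocount of 1, where the median over all genes tested was 0.0916. Gins1 stood at 1.35, 3.24 and 3.13 CPM under the wt label, and at 3.74, 4.20 and 3.69 under the knockdown label. Gins3 stood at 4.41, 4.93 and 6.39 CPM and at 8.34, 6.54 and 6.65 in the same order. For both, the groups did not overlap, and the margin was narrow, with a log2 fold change of 0.59 (SE 0.37) for Gins1 and 0.45 (SE 0.24) for Gins3. Without wt replicate 1 the estimate of Gins1 was 0.28 (SE 0.25), that of Gins3 0.34 (SE 0.23), and the median of the 6 factors 0.34. The FPKM ratio of Gins4 to Gins1 was 12.1 in wt replicate 1 and between 3.78 and 4.95 in the other 5 libraries, a pair chosen after the values were seen. Mcm10 ranged from 2.08 to 7.72 CPM under the wt label and from 6.48 to 10.2 under the knockdown label, and Cdc45 from 3.80 to 8.60 and from 8.07 to 11.7.

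The polymerases, the clamp and its loader had 7 members with higher estimates, with a median log2 fold change of 0.37. Pcna, the sliding clamp that holds polymerases on DNA, lies on chromosome 2 from 132249162 to 132253314 and was the most abundant member per length, at a mean of 118 FPKM over the libraries. Its levels were 122, 140.0 and 123 CPM in wt replicates 1, 2 and 3, and 159.8, 184 and 151 in knockdown replicates 1, 2 and 3. The groups did not overlap, and wt replicate 1 was close to wt replicate 3, unlike in most members. The log2 fold change of Pcna was 0.36 (SE 0.13, 95% interval 0.07 to 0.66, edgeR quasi-likelihood, adjusted p = 0.328), and 0.33 (SE 0.14) without wt replicate 1. Among pseudogenes named after a member, Pcna has 2 and Tyms 1, and reads may have been divided between these copies. Pseudogenes of members under other names were not searched.
Pola1, the catalytic subunit of the polymerase that makes primers, lies on the X chromosome and stood at 2.87, 13.5 and 17.2 CPM under the wt label, and at 24.8, 26.8 and 17.3 under the knockdown label. Wt replicate 1 minus the mean of the other wt libraries was -2.39 log2 units, the farthest of all members, and knockdown replicate 3 barely exceeded wt replicate 3. The log2 fold change of 1.04 (SE 0.55) became 0.58 (SE 0.22) without wt replicate 1. Pole, the catalytic subunit of the leading-strand polymerase, had 0.93 (SE 0.41), and Pold1, that of the lagging-strand polymerase, 0.29 (SE 0.16), both as log2 fold change, and without wt replicate 1 Pole was at 0.59 (SE 0.26). The clamp loader subunits Rfc3, Rfc4 and Rfc5 had log2 fold changes of 0.37, 0.58 and 0.34, and the groups overlapped for all of them. Rfc3 was at 0.19 and Rfc5 at 0.20 without wt replicate 1.

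**Figure D3:**
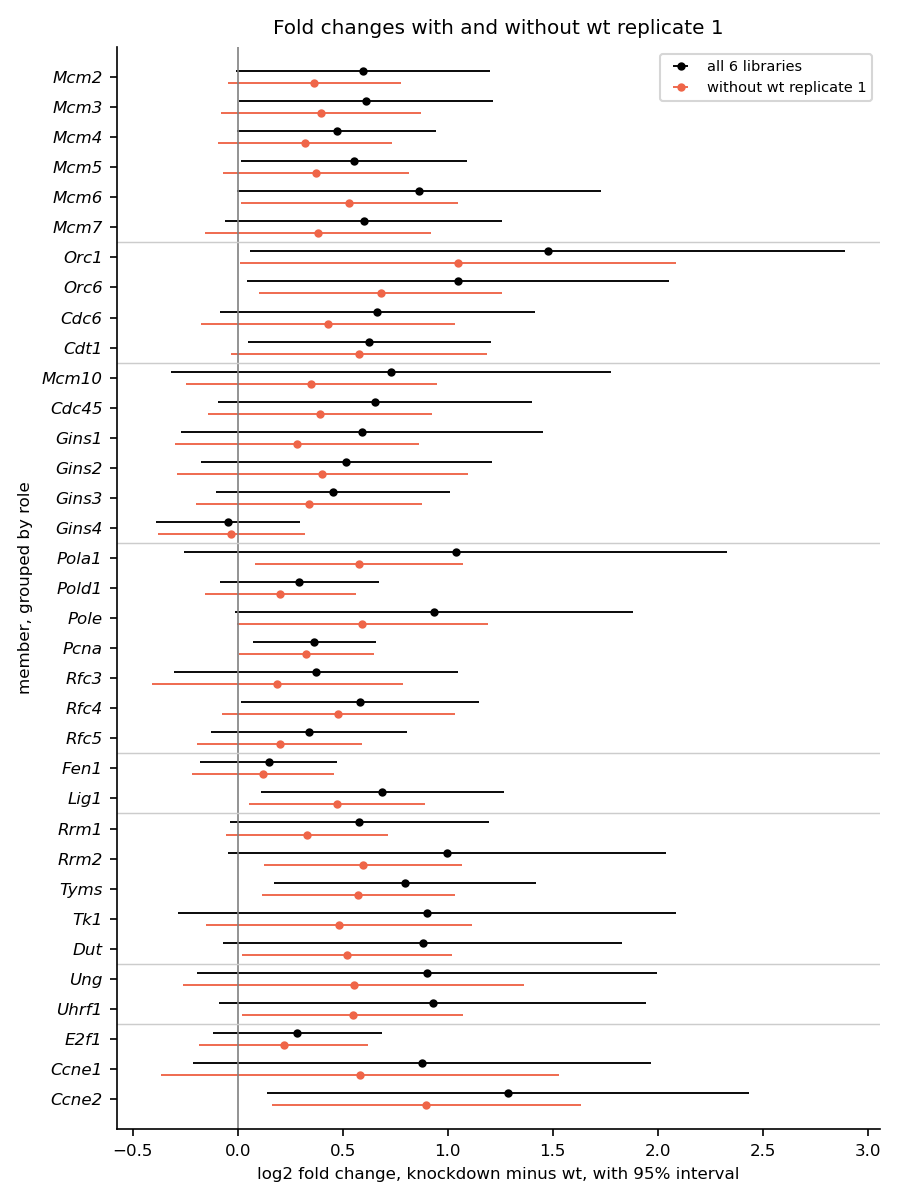
Log2 fold change of each member, knockdown minus wt, with its 95% interval from edgeR, over all 6 libraries (black) and without wt replicate 1 (orange), with members grouped by role from top to bottom. Without wt replicate 1 the estimates lie between -0.03 and 1.05, and the intervals of members such as Pola1, Mcm6 and Rrm2 become shorter.

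Flap removal and ligation join the fragments of the lagging strand. Lig1, the ligase, lies on chromosome 7 from 13277283 to 13311433 and stood at 12.0, 21.5 and 19.3 CPM in wt replicates 1, 2 and 3, and at 28.8, 33.5 and 22.9 in knockdown replicates 1, 2 and 3. All knockdown values exceeded all wt values, with a log2 fold change of 0.69 (SE 0.25, edgeR quasi-likelihood, adjusted p = 0.328) and 0.47 (SE 0.18) without wt replicate 1. Fen1, the nuclease that removes flaps, differed far less between labels, at 20.0, 22.7 and 19.4 CPM and at 22.2, 24.8 and 21.7 CPM. Its groups overlapped, and the 95% interval of its log2 fold change was -0.18 to 0.47.

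Enzymes of deoxynucleotide supply had 5 of 5 higher estimates, with a median log2 fold change of 0.88. Tyms, which makes thymidylate and had the smallest p-value of all members, lies on chromosome 5 from 30058202 to 30073617. It stood at 5.45, 10.2 and 8.63 CPM in wt replicates 1, 2 and 3, and at 14.4, 16.3 and 11.5 in knockdown replicates 1, 2 and 3. The groups did not overlap, and its log2 fold change was 0.79 (SE 0.27, 95% interval 0.17 to 1.42, edgeR quasi-likelihood, adjusted p = 0.328), with 0.57 (SE 0.20) without wt replicate 1. Rrm2, the subunit of ribonucleotide reductase whose level changes through the cell cycle, stood at 7.17, 27.7 and 22.9 CPM under the wt label, and at 40.7, 45.5 and 28.9 under the knockdown label. Its groups did not overlap either, with log2 fold changes of 0.99 (SE 0.45) and, without wt replicate 1, 0.60 (SE 0.21).
Rrm1, the stable large subunit of the same enzyme, overlapped between labels, with 22.0 to 46.1 CPM and 43.9 to 59.5 CPM. The FPKM ratio of Rrm2 to Rrm1 was 0.597, 1.10 and 1.13 in wt replicates 1, 2 and 3 and 1.38, 1.40 and 1.21 in knockdown replicates 1, 2 and 3, for a pair chosen after the values were seen. Every knockdown library had a higher ratio than every wt library. Tk1, which salvages thymidine, and Dut, which removes dUTP, had log2 fold changes of 0.90 (SE 0.51) and 0.88 (SE 0.41), and their groups overlapped. These became 0.48 (SE 0.28) and 0.52 (SE 0.22) without wt replicate 1, and the median of the 5 enzymes became 0.52.

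Ung, which cuts uracil out of DNA, and Uhrf1, which guides the copying of DNA methylation behind the fork, had log2 fold changes of 0.90 and 0.93. Uhrf1 stood at 9.05, 34.0 and 24.5 CPM in wt replicates 1, 2 and 3, and at 46.5, 50.6 and 31.4 in knockdown replicates 1, 2 and 3. Its groups overlapped through knockdown replicate 3, which lay below wt replicate 2. Without wt replicate 1 the log2 fold change was 0.55 for both, with an SE of 0.35 for Ung and 0.23 for Uhrf1.

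Regulators of the G1 to S switch had estimates of different size, with 95% intervals that overlapped. E2f1, the transcription factor that opens the program, stood at 14.0, 17.0 and 15.0 CPM under the wt label, and at 19.4, 21.1 and 15.5 under the knockdown label. Its groups overlapped and its log2 fold change was 0.28 (SE 0.17, 95% interval -0.12 to 0.68), and 0.22 (SE 0.18) without wt replicate 1. Ccne2, a cyclin E that drives Cdk2 at S phase entry, lies on chromosome 4 from 11191351 to 11204779 and stood at 0.787, 2.71 and 2.65 CPM under the wt label, and at 4.81, 6.64 and 3.56 under the knockdown label. These groups did not overlap, with a log2 fold change of 1.29 (SE 0.49, 95% interval 0.14 to 2.43, edgeR quasi-likelihood, adjusted p = 0.328) and 0.90 (SE 0.32) without wt replicate 1. The counts behind Ccne2 were low, from 28 to 278 per library. Ccne1, the other cyclin E, overlapped between labels, with 1.38 to 4.09 CPM and 2.87 to 6.09 CPM. Its log2 fold change was 0.88 (SE 0.47, 95% interval -0.21 to 1.97), and 0.58 (SE 0.41) without wt replicate 1.

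**Figure D4:**
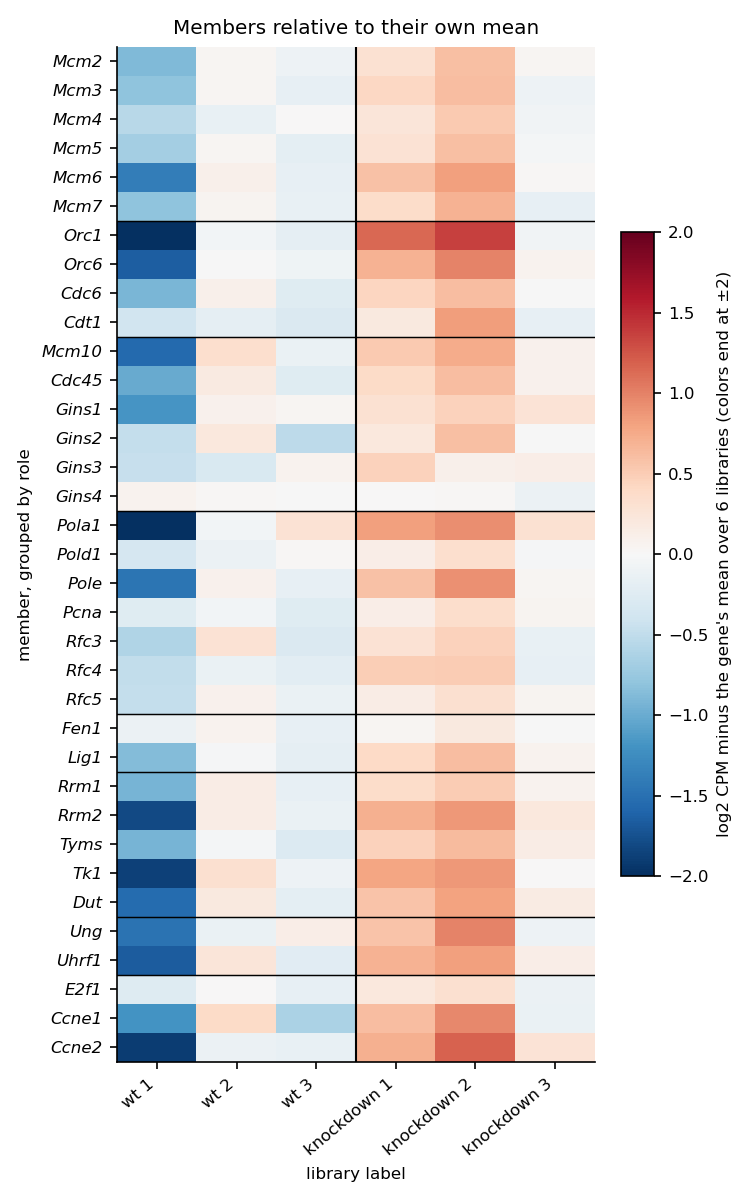
Log2 CPM of each member minus its own mean over the 6 libraries (color, red above and blue below the mean), with members as rows grouped by role and libraries as columns, wt left and knockdown right of the line. Wt replicate 1 is blue in nearly all rows, knockdown replicates 1 and 2 are red, and wt replicates 2 and 3 and knockdown replicate 3 are pale, while Gins4 is pale throughout.

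Read by library, the lowest and the highest library were the same in most members, while the order of the others varied. The sum over the 35 members was 465, 784 and 688 CPM in wt replicates 1, 2 and 3, and 992, 1161 and 777 CPM in knockdown replicates 1, 2 and 3, so that knockdown replicate 3 lay between wt replicates 2 and 3. Wt replicate 1 had the lowest value for 32 members, against 33.5% of all genes tested, and knockdown replicate 2 the highest for 33 members, against 25.1%. Wt replicate 1 minus the other wt libraries had a median of -0.83 log2 units over the members with a median of 0.01 over all genes tested. It lay past -1 for 14 members, against 14.5% of all genes. Knockdown replicate 3 exceeded both wt replicates 2 and 3 in 11 of the 35 members, or 31.4%, as against 30.8% of all genes tested, with a median log2 difference to their mean of 0.07 (all genes 0.02). For that library the members were thus at the share of all genes. The median SD of log2 CPM between wt libraries was 0.49 for the members and 0.29 for all genes tested, and between wt replicates 2 and 3 alone it was 0.17 for both.

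Of 48 other replication genes, a list that holds none of the members, 39 had higher and 9 lower estimates, and the median log2 fold change was 0.51. edgeR called 0 of them at an adjusted p under 0.05, and 13 were higher and 2 lower at an unadjusted p under 0.05, against 6.9% and 8.31% of all genes. Without wt replicate 1 the median was 0.32, and 9 were higher and 2 lower, against 6.81% and 5.38% of all genes. Dbf4, the activator of the kinase that fires origins, stood at 7.99, 13.3 and 15.2 CPM in wt replicates 1, 2 and 3, and at 22.7, 30.4 and 16.4 in knockdown replicates 1, 2 and 3. Wdhd1, which couples polymerase to helicase, and the histone chaperone Nasp had log2 fold changes of 0.61 (SE 0.20) and 0.69 (SE 0.24). Dck, which salvages deoxycytidine, went the other way, from 61.8, 53.0 and 52.7 CPM under the wt label to 39.6, 33.1 and 42.6 under the knockdown label, with a log2 fold change of -0.54 (SE 0.14).
Of 28 tested genes among 30 other G1/S regulators, 18 had higher and 10 lower estimates, with a median log2 fold change of 0.18. At an unadjusted p under 0.05, 1 gene (Cdk6) was higher and 2 (E2f2 and Ccnd3) were lower, shares that do not exceed those of all genes (6.9% and 8.31%). Without wt replicate 1 the median was 0.09, and E2f2 alone was under that p. E2f2, a sister of E2f1, stood at 86.4, 37.3 and 48.9 CPM in wt replicates 1, 2 and 3, and at 31.1, 23.0 and 35.1 in knockdown replicates 1, 2 and 3. The D-type cyclin Ccnd3 stood at 187, 103 and 115 CPM and at 84.2, 70.9 and 101 CPM in the same order. Both were highest in wt replicate 1, where most members were lowest.
All 15 mitosis genes had higher estimates, with a median log2 fold change of 0.81 that became 0.40 without wt replicate 1, and edgeR called 0 of them. Mki67, a marker of cycling cells, stood at 16.9, 96.1 and 96.9 CPM under the wt label, and at 123, 146 and 98.6 under the knockdown label. Top2a, which untangles replicated DNA, stood at 15.5, 94.1 and 82.6 CPM and at 135.9, 152 and 105 CPM in that order. The order of libraries in the sum of the mitosis list was that of the members from the lowest to the highest, apart from wt replicate 2 and knockdown replicate 3, which changed places.

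**Figure D5:**
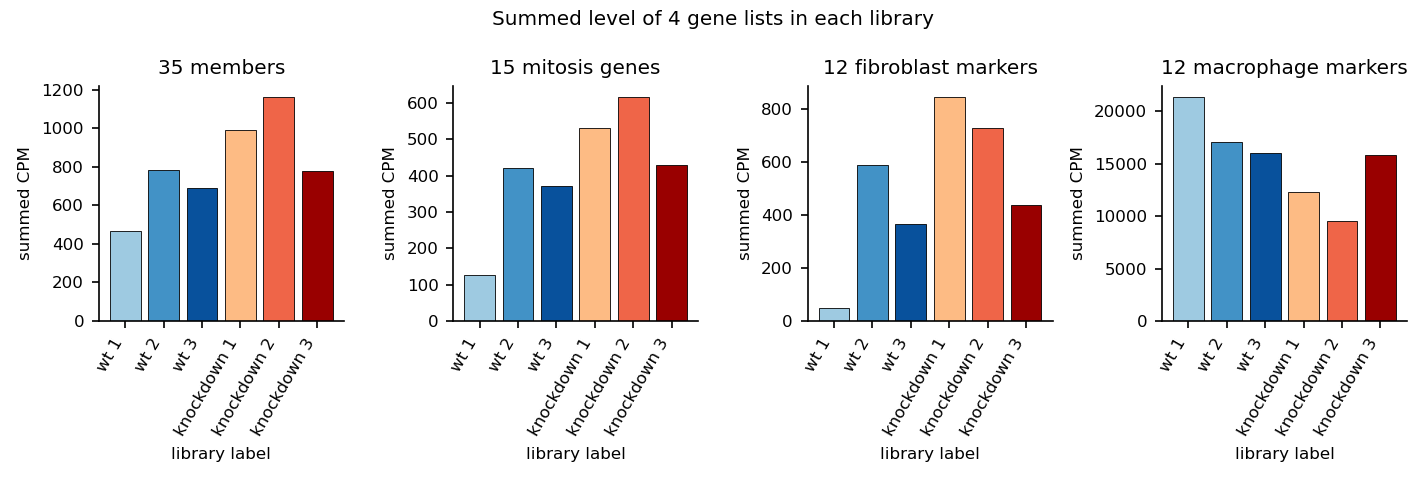
Summed TMM-scaled CPM of the 35 members, 15 mitosis genes, 12 fibroblast markers and 12 macrophage markers (vertical axes from 0, one per panel) in each of the 6 libraries (horizontal axis; blue, wt; orange to red, knockdown). Members run from 465 to 1161 CPM, mitosis and fibroblast sums are lowest in wt replicate 1, and the macrophage sum is highest there and lowest in knockdown replicate 2.

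Markers of cell types also differed between these libraries. The 12 macrophage markers summed to 21339, 17053 and 15988 CPM in wt replicates 1, 2 and 3, and to 12261, 9522 and 15871 in knockdown replicates 1, 2 and 3, with 12 of 12 estimates lower. All 12 fibroblast markers were tested and 11 had higher estimates, with sums of 49.5 to 589 CPM under the wt label and 438 to 843 under the knockdown label. The T cell list had higher estimates for 8 of 8 tested markers (32.3 to 118 and 94.6 to 262 CPM), and the epithelial or carcinoma list for 5 of 7 (37.1 to 139 and 131 to 195 CPM), with Krt19 and Cldn4 at 0 in some libraries. The neutrophil list had lower estimates for 9 of 9 tested markers (1318 to 1657 and 640 to 1272 CPM). B cell, dendritic cell and endothelial sums, at 6.26 to 58.0, 217 to 373 and 30.8 to 41.5 CPM over all libraries, overlapped between labels, with Tek and Emcn at 0 in some libraries. The part of these cells in the levels of the members was not tested.

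For 12 members an exon of another annotated gene overlaps on the opposite strand. These were Mcm7, Orc1, Orc6, Cdc45, Gins2, Pole, Rfc4, Rfc5, Fen1, Lig1, Tk1 and Ccne2. Whether strand entered the counting is not given in the sources used here. Without strand, reads from the shared bases of such a pair cannot be told apart. The length of the shared stretches was not measured. Mcm7 also hosts the microRNAs Mir25, Mir93 and Mir106b.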

How the data were processed

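RNA was measured in 6 libraries, 3 labelled wt and 3 labelled knockdown, with 36550775 to 38147320 total counts. The deposited table holds raw read counts of each gene as whole numbers. Its FPKM columns, also deposited, are these counts over a fixed gene length and the total of the library, which was checked in 11473 genes. The submitters' processing notes name the build mm10. The aligner, the counter and the annotation are not given in the sources used here. Counts were filtered with filterByExpr, scaled by TMM and fitted with glmQLFit and glmQLFTest in edgeR 4.0.16 (R 4.3.3) over 13884 genes, with Benjamini-Hochberg adjustment. SE was taken as the size of the log2 fold change over the root of F, and intervals are 95%. log2 CPM used a prior count of 2. CPM are TMM-scaled. DESeq2 1.42.0 on counts and limma 3.58.1 on log-scaled FPKM (log2, pseudocount 1 or 0.1) served as alternatives, beside other scalings, other filters, a replicate block and 1 library left out at a time. The fits were tested on simulated data whose spread was set below the measured one and whose changes were larger than those of any member. That test therefore does not show what the fits could detect in these libraries. Figures were drawn with matplotlib 3.10.9.

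The members and lists were chosen with earlier results of these data known. Values in every library are given for members whose groups did not overlap, for the 6 with the smallest p and for the most abundant member per length in each role. Orc1 was added after its values were seen. Of the other lists, up to 4 genes under an unadjusted p of 0.05 were named, with Mki67 and Top2a. Replicate numbers were not used as a pairing, since same-numbered libraries did not deviate together.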

Additional observations from a re-analysis of the deposited data

How the results depend on the processing

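No member was called (0 of 35) under upper quartile or RLE factors, no filter on low counts, at least 10 counts in every library, DESeq2, or limma on FPKM with a pseudocount of 1 or 0.1. The number of genes changed over all genes stayed 0 in these edgeR and limma fits (2112 genes at an unadjusted p under 0.05 in the reported fit), and was 36 with DESeq2 and 78 with DESeq2 without wt replicate 1, a setting chosen after seeing the data. The cause was not tested. The median log2 fold change of the members ranged from 0.60 to 0.77 over the scalings, filters and tools with all libraries. limma on log2 FPKM moved the median of all genes to 0.0916 with a pseudocount of 1 and to 0.16 with 0.1. Gins4 turned positive on log2 FPKM, at 0.0910 with a pseudocount of 1 and 0.0987 with 0.1, and kept its sign in the other settings. All other members kept theirs in each setting.

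With 1 library left out in turn, the members called by edgeR stayed 0, the genes changed stayed 0, members above 0 stayed 34, and the median of the members ranged from 0.40 without wt replicate 1 to 0.82 without wt replicate 2. At an unadjusted p under 0.05 there were 10 members with all libraries (15.2% of all genes), 0 without knockdown replicate 1 (5.49%) or knockdown replicate 2 (4.75%), 4 without wt replicate 3 (16.8%), 22 without wt replicate 2 (18.8%), 15 without knockdown replicate 3 (17.3%) and 11 without wt replicate 1 (12.2%). The number was 20 without a filter (13.0%), 16 with DESeq2 (11.0%), and 22 and 23 with limma (20.0% and 18.7%). A fit with a block for the replicate number called 0 members and 0 genes, with 15 members (11.6% of all genes) at an unadjusted p under 0.05 and a median of the members of 0.68. The correlation of deviations between same-numbered libraries was -0.241, 0.06 and -0.337. These values gave no sign of a pairing by number, but with 3 libraries per group they cannot exclude one. At this depth a count of 0 allows up to 3 counts, or 0.0716 to 0.0846 CPM, which covers counting error only, and every member lay above it in every library.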
